A study of Homo sapiens with 12 samples.

Results

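The 10 genes described here encode the protein subunits of SF3A and SF3B, the 2 protein complexes that join the U2 small nuclear ribonucleoprotein (U2 snRNP). They were taken by name: SF3B1, SF3B2, SF3B3, SF3B4, SF3B5, SF3B6 and PHF5A for SF3B, and SF3A1, SF3A2 and SF3A3 for SF3A. Each symbol matched 1 Ensembl identifier, so the genes were 10 of the 63541 rows in the table, and all 10 were among the 21999 genes that passed the filter on low counts. Their mRNAs were measured in HEK293T, a human embryonic kidney cell line that carries the SV40 large T antigen, after transfection of 12.5 nM siRNA for 48 h. snaR-A is a short noncoding RNA, and cells received either a scramble control or 1 of 3 different siRNAs that target it. The study designed the 3 siRNAs against sequence near the 3′ end of snaR-A, so they share a target region. Scramble and the 3 siRNAs give 4 groups of 3 replicates, named scramble, si-snaR-A#1, #2 and #3. In the sequences that the study lists, #2 and #3 overlap almost wholly and #1 overlaps both in large part. The 3 siRNAs are therefore not independent reagents. All 12 libraries came from transfected cells of 1 line. The study's methods call the replicates of its sequencing experiments biological and say that they were handled within a single day, so p-values measure the spread between such replicates.

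In the spliceosome, U2 snRNP pairs with the branch site of an intron, and SF3A and SF3B are the protein parts of the particle that make this pairing possible. SF3B clamps the branch helix and holds the bulged branch adenosine, and SF3A bridges SF3B and the rest of U2 snRNP. SF3B is also part of the U11/U12 particle that recognises minor introns, and SF3B1 is recurrently mutated in myelodysplastic syndromes, chronic lymphocytic leukaemia and uveal melanoma.

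The genes lie on 7 chromosomes (GRCh38, GENCODE release 44). SF3B2 (ENSG00000087365) is at chr11:66050729-66069308 on the plus strand, PHF5A (ENSG00000100410) at chr22:41459717-41468692 on the minus strand, and SF3A3 (ENSG00000183431) at chr1:37956975-37990075 on the minus strand. SF3B1 (ENSG00000115524) is at chr2:197388515-197435079, SF3B6 (ENSG00000115128) at chr2:24067586-24076373, SF3B5 (ENSG00000169976) at chr6:144094884-144095573 and SF3B4 (ENSG00000143368) at chr1:149923317-149927803, all on the minus strand. SF3B3 (ENSG00000189091) is at chr16:70523791-70577670 and SF3A2 (ENSG00000104897) at chr19:2236824-2248655, both on the plus strand, and SF3A1 (ENSG00000099995) is at chr22:30331988-30356919 on the minus strand. The MANE Select transcripts, 1 reference transcript per gene, run from 651 bases in SF3B6 to 9692 bases in SF3B3. SF3B5 has a single exon, whereas the others have between 4 and 26.

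RefSeq promoters of GRCh38.p14 were held for 8 of the 10 genes, and SF3B3 and PHF5A had no entry. In the 250 bases before the RefSeq start, 6 of these 8 genes held the letters CCGGAAGT on either strand, the core bound by ETS-family transcription factors such as GABPA. Those letters stood in 3.42% of all 35116 promoters of that length and in 5.17% of the 19070 promoters of tested genes. The 8 genes had 9 promoters, and a gene was counted if any of its promoters held a motif. The shares, here and below, are of promoters and not of genes. The motifs searched were chosen after the promoters had been read, so the count is a description of these sequences and not a test. The windows of 30 bases are printed because this stretch is shared by genes of both complexes. They are written 5′ to 3′ on the strand of the gene, with the motif or its reverse complement in capitals.
SF3B2, chr11:66052300-66052329 (+): atacggcgccaCCGGAAGTtccggcaagtg
SF3B4, chr1:149927811-149927840 (-): ccgtcttcgccCCGGAAGTggaagtcgtgc
SF3B6, chr2:24076467-24076496 (-): cggtacagagcCCGGAAGTgtcttggactc
SF3A1, chr22:30356925-30356954 (-): aggggacggtcCCGGAAGTgcgccagtcgt
SF3A2, chr19:2236794-2236823 (+): agagggcccgtctcatttgccCCGGAAGTg
SF3A3, chr1:37990073-37990102 (-): agtcccggggcACTTCCGGcactcgcggaa

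The first capital lay between 9 bases (SF3A2) and 159 bases (SF3B6) before the RefSeq start. The windows of SF3A1 and SF3A2 lie wholly in annotated exons of the neighbouring genes CCDC157 and PLEKHJ1, that of SF3B2 lies wholly in an annotated SF3B2 exon, that of SF3A3 shares 3 bases with an SF3A3 exon, and those of SF3B4 and SF3B6 are in no annotated gene. A GC box (GGGCGG) was held by 6 of the 8 genes, against 60.1% of the promoters of tested genes. CCAAT was held only by SF3B5 and CACGTG only by SF3B1, TATAAA and the NRF1 motif by none of the 8, and the shares among promoters of tested genes were 32.6%, 7.82%, 6.72% and 1.49%. GC content of the members' promoters was 58.0 to 73.2%, against a median of 58.0% over all promoters. The genes with the shared letters did not behave alike below: SF3B2 and SF3A3 rose with every siRNA, and SF3B4 was called with none.

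Library totals ran from 120.4 to 180.1 M estimated counts, and each member had between 5240 and 113753 counts in a library. Pairs of replicates gave a chi-square of 13 to 63 per degree of freedom over genes, so that no library was a repeat of another. Values below are CPM (counts scaled to the library's total) on TMM-scaled library sizes, a share of the sequenced RNA, so that a change in the RNA content of a cell cannot be told apart from a change in the mRNA's share. Along the first principal component, which held 37.8% of the variance of 14529 genes, the 3 si-snaR-A#1 libraries lay at 36.7 to 44.7 and the other 9 at -17.5 to -7.09. The release 44 annotation held 0 snaR symbols, so the level of the targeted RNA was not checked here. Of 7 markers of the line 6 were present, among them KRT18 at 27.9 to 34.9 CPM and VIM at 462 to 767 CPM, and LHX1 was at 0.121 to 0.889 CPM; their sum was 967 to 1050 CPM with scramble, 917 to 1040 with #1, 1460 to 1470 with #2 and 1170 to 1250 with #3. Of 10 markers of other cell types, UMOD and HBB were at 0 throughout, 7 stayed at or below 0.335 CPM and COL1A1 stood at 13 to 27 CPM. Summed, these 10 ran from 24.9 to 27.3 CPM with scramble, 22.5 to 23.1 with si-snaR-A#1, 19.5 to 22 with si-snaR-A#2 and 13.5 to 14.8 with si-snaR-A#3, and the part of either marker list in the results was not tested.

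PHF5A and SF3B2 had the 2 largest rises of the 10 genes with each siRNA. Of the 10, 7 were called higher with si-snaR-A#1 at an edgeR quasi-likelihood adjusted p under 0.05, when 21.9% of all genes tested were called higher, 23.3% lower and 45.2% in either direction. With si-snaR-A#2, 5 were called higher (13.7% of all genes, 25.8% in either direction). With si-snaR-A#3, 4 were called higher and SF3B5 lower (16.5% and 13% of all genes, 29.4% in either direction). SF3B2, PHF5A and SF3A3 were called higher with each of the 3 siRNAs, as were 5.16% of all genes, and none of the 10 was called lower with each (2.84% of all genes). The median log2 fold change of the 10 was 0.27, 0.14 and 0.08 with si-snaR-A#1, #2 and #3, beside -0.02, -0.03 and -0.03 over all genes tested. The 3 comparisons share the scramble libraries, and their siRNAs overlap in sequence. By the libraries themselves, 7 genes lay wholly above scramble with #1 (25.6% of all genes tested), 6 with #2 (21.3%) and 6 with #3 (22%), and SF3B5 lay wholly below it with #3 (21.4%). Shares of all genes, here and below, were not matched for expression. All 10 members averaged 10 CPM or more, beside 10198 of the 21999 genes tested.

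**Figure D1:**
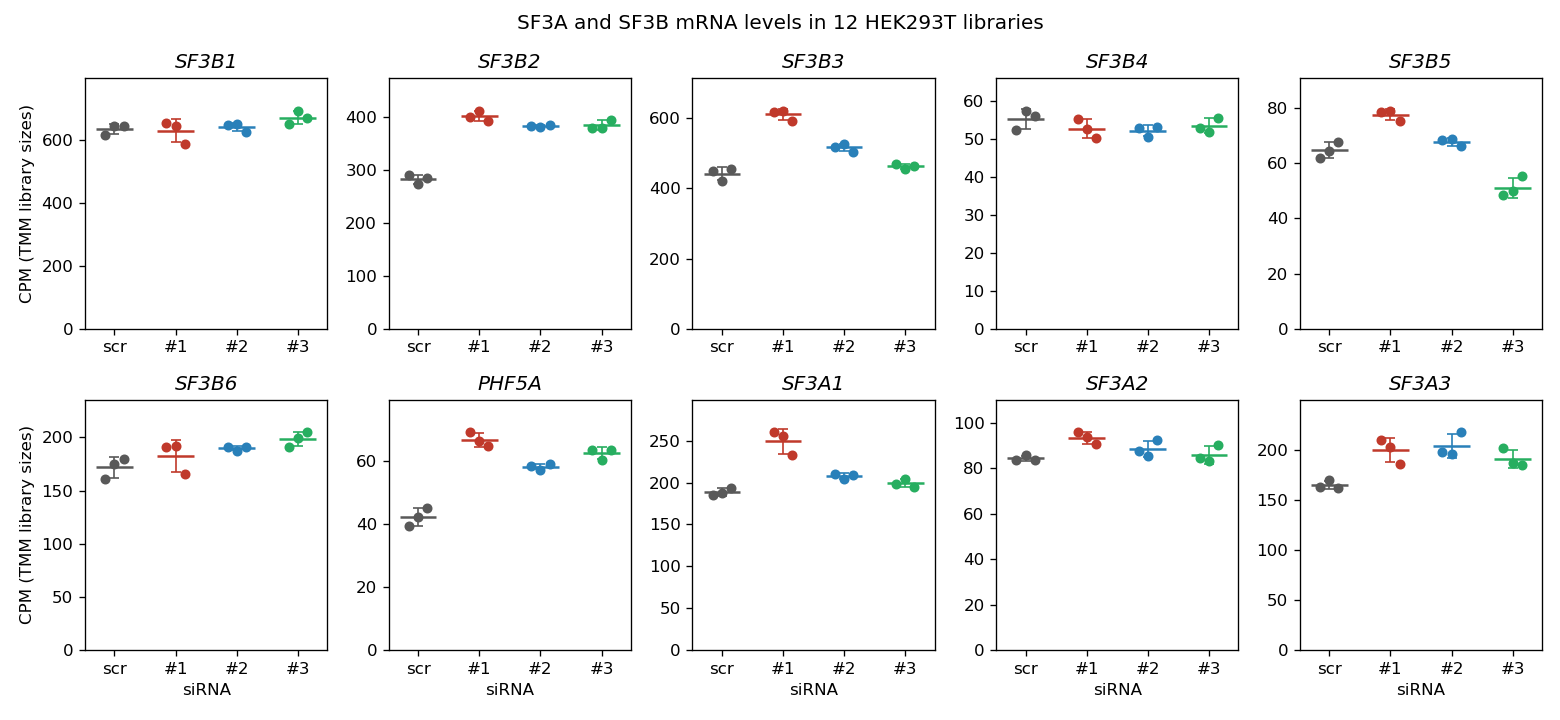
CPM (vertical axis, from 0, a separate scale in each panel) of the 10 subunit genes in the 4 siRNA groups, where scr is scramble. Points are the 3 libraries of a group, horizontal lines the mean and bars the SD. The 9 siRNA libraries lie above all 3 scramble libraries for SF3B2, PHF5A, SF3A1 and SF3A3, and SF3B5 parts into higher values with #1 and lower values with #3.

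SF3B2 is the SF3B subunit that binds SF3B4 and contacts the pre-mRNA near the branch site. It stood at 290, 274 and 286 CPM in the scramble libraries. With si-snaR-A#1 it was at 401, 412 and 393 CPM, with si-snaR-A#2 at 384, 382 and 385 CPM, and with si-snaR-A#3 at 380, 379 and 396 CPM. No siRNA library overlapped a scramble library, and the group means were 283 ± 8.63, 402 ± 9.37, 384 ± 1.33 and 385 ± 9.2 CPM (SD, n = 3). The log2 fold changes were 0.51, 0.44 and 0.44 (SE 0.036 each), which are 1.42-, 1.36- and 1.36-fold, with edgeR adjusted p of 2.31e-07, 3.16e-06 and 2.27e-06. Among the siRNAs the SF3B2 differences were not called: the log2 difference was 0.07 for #1 against #2 (95% interval -0.01 to 0.15), 0.06 for #1 against #3 (-0.02 to 0.14) and -0.01 for #2 against #3 (-0.08 to 0.07). The first 2 of these differences were called under upper quartile scaling, at 0.12 each (edgeR adjusted p of 0.00893 and 0.00774). Under that scaling the median over all genes tested was 0.081 and 0.085 in these comparisons, beside 0.029 and 0.025 with TMM. The same 2 differences were called with a minimum mean of 1 CPM, at 0.10 and 0.12 (edgeR adjusted p of 0.0155 and 0.00709).

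PHF5A, the small zinc finger subunit that with SF3B1 forms the pocket for the branch adenosine, had the largest fold change of the 10 with each siRNA. Scramble libraries gave 39.5, 42.3 and 45.3 CPM. The values were 69.2, 66.3 and 65 CPM with si-snaR-A#1, 58.5, 57.3 and 59.1 CPM with si-snaR-A#2 and 63.7, 60.5 and 63.8 CPM with si-snaR-A#3. The groups did not overlap scramble, and si-snaR-A#1 was the highest. The rises were 1.58-fold (log2 0.66, SE 0.049), 1.38-fold (0.46) and 1.48-fold (0.57), with edgeR adjusted p of 2.89e-07, 2.14e-05 and 3.3e-06. The difference between #1 and #2 was called (log2 0.20, edgeR adjusted p = 0.00462). That between #1 and #3 was not called (0.09, edgeR adjusted p = 0.132). It was called under upper quartile scaling (edgeR adjusted p = 0.0138) and with a minimum mean of 1 CPM (0.0105).

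SF3B1, the HEAT-repeat scaffold that encircles the branch helix, and SF3B4, the RNA-recognition-motif subunit that pairs with SF3B2, were called with no siRNA. SF3B1 read 616, 644 and 646 CPM with scramble, 655, 645 and 588 CPM with #1, 646, 650 and 626 CPM with #2 and 651, 692 and 669 CPM with #3. Its libraries overlapped scramble with #1 and #2, and those of #3 lay just above. The log2 fold change for the mean of the 3 siRNAs was 0.03 with a 95% interval of -0.06 to 0.11 (edgeR adjusted p = 0.664). SF3B4 read 52.5, 57.5 and 56.2 CPM with scramble and 50.3 to 55.8 CPM over the 9 siRNA libraries, which overlapped it in each group. Its log2 fold change for the mean of the 3 was -0.07 (95% interval -0.15 to 0.02, edgeR adjusted p = 0.223), and upper quartile scaling called the value with si-snaR-A#2 lower (-0.13, edgeR adjusted p = 0.0431).

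SF3B3, the large beta-propeller scaffold that holds SF3B5, was graded over the siRNAs. With scramble it was at 451, 420 and 455 CPM. It rose to 618, 620 and 593 CPM with #1 and to 519, 526 and 505 CPM with #2, and the values with #3 were 469, 455 and 465 CPM. The first 2 groups lay above scramble, and the libraries of #3 overlapped it. The changes were 1.38-fold (log2 0.47, SE 0.04) with #1 and 1.17-fold (0.23) with #2, at edgeR adjusted p of 1.07e-06 and 0.00116, and 0.07 with #3 (95% interval -0.02 to 0.15, edgeR adjusted p = 0.242).

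SF3B5, the small helical subunit bound to SF3B3, was the only member called in both directions. Scramble libraries were at 62, 64.5 and 67.6 CPM. The gene read 78.5, 78.9 and 75.3 CPM with si-snaR-A#1, 68.5, 68.6 and 66.1 CPM with si-snaR-A#2, and 48.4, 49.9 and 55.2 CPM with si-snaR-A#3. The first group was above scramble, the second overlapped it and the third was below it. The log2 fold changes were 0.26 (edgeR adjusted p = 0.000848), 0.07 (0.385) and -0.34 (0.000251), with an SE of 0.05 each. The mean of the 3 siRNAs was therefore near 0 (-0.004). Over #2 and #3 alone, a mean chosen after seeing the data, it was -0.14 (edgeR adjusted p = 0.0292). That value joined the unequal 0.07 and -0.34.

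SF3B6, also called p14, sits against SF3B1 close to the branch adenosine. It was at 161, 175 and 180 CPM with scramble, 191, 192 and 166 CPM with si-snaR-A#1, 191, 188 and 191 CPM with si-snaR-A#2 and 191, 199 and 205 CPM with si-snaR-A#3. The latter 2 groups lay above scramble and the first overlapped it. The log2 fold change was called with #3 (0.21, SE 0.059, edgeR adjusted p = 0.0173) and in the mean of the 3 (0.15, 0.0322), but with #1 (0.09) and #2 (0.15) it was not, at edgeR adjusted p of 0.234 and 0.0887. The call with #3 was lost without scramble replicate 1 (edgeR adjusted p = 0.0795) or without si-snaR-A#3 replicate 2 (0.0524) or 3 (0.0585), and that of the mean without scramble replicate 1 (0.194) or 2 (0.0711). Leaving out si-snaR-A#1 replicate 1, si-snaR-A#2 replicate 1 or 3 or si-snaR-A#3 replicate 2 put the mean at edgeR adjusted p of 0.0531 to 0.0538. The value with #1 became 0.16 without its replicate 3 (edgeR adjusted p = 0.0241), and that with #2 was called without scramble replicate 3 (0.0492) or without si-snaR-A#1 replicate 3 (0.0173), with a minimum mean of 1 CPM (0.0447) or only the groups compared (0.0387), and by DESeq2 (adjusted p = 0.0349).

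**Figure D2:**
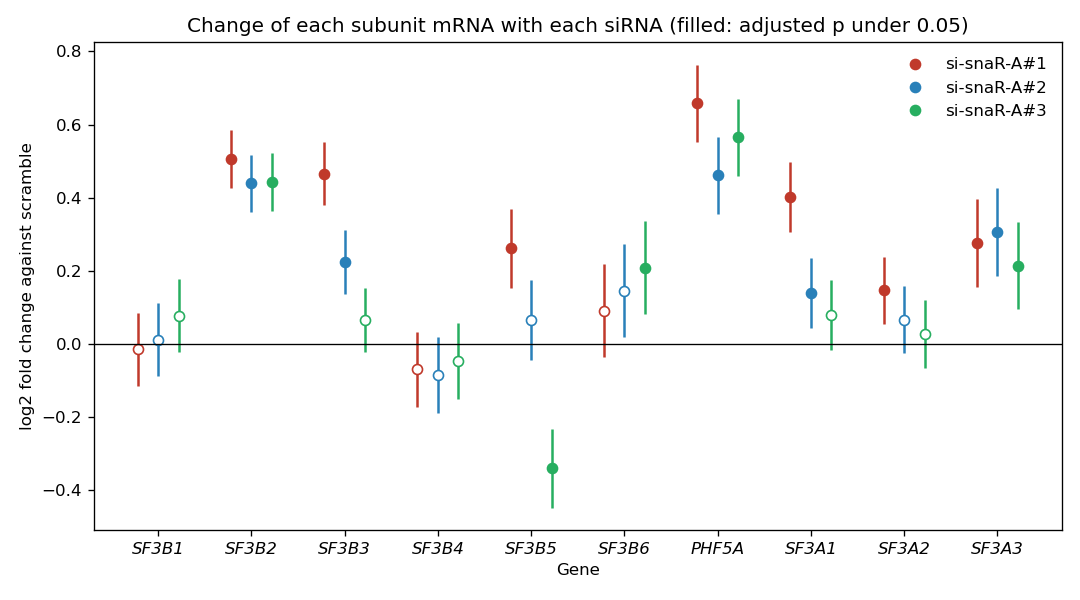
log2 fold change against scramble (vertical axis) of each subunit gene (horizontal axis) with each of the 3 siRNAs. Bars are 95% intervals and filled points have an edgeR adjusted p under 0.05. SF3B2 and PHF5A lie above 0.4 with every siRNA, SF3B1 and SF3B4 stay near 0, and SF3B5 is above 0 with #1 and below it with #3.

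Of the 3 SF3A genes, SF3A3 rose with each siRNA. SF3A3, the zinc finger subunit that binds SF3A1, was at 162, 169 and 162 CPM with scramble. It was at 209, 203 and 186 CPM with si-snaR-A#1, at 198, 196 and 217 CPM with si-snaR-A#2 and at 201, 187 and 184 CPM with si-snaR-A#3. None of the 9 libraries overlapped scramble, and the 3 siRNA groups overlapped each other. The log2 fold changes were 0.28, 0.31 and 0.21 (SE 0.055 each), or 1.21-, 1.24- and 1.16-fold, with edgeR adjusted p of 0.00118, 0.00126 and 0.0107.

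SF3A1, the ubiquitin-fold and SURP-domain subunit that contacts U1 snRNP, was at 185, 187 and 194 CPM with scramble. Values were 260, 256 and 232 CPM with si-snaR-A#1, 210, 204 and 209 CPM with si-snaR-A#2 and 198, 205 and 195 CPM with si-snaR-A#3. All 9 libraries lay above scramble, which held for 4 of the 10 genes (SF3B2, PHF5A, SF3A1 and SF3A3) and for 6.62% of all genes tested, and no member had all 9 below (5.5%). The rise was 1.32-fold with #1 (log2 0.40, SE 0.044, edgeR adjusted p = 8.78e-06). That with #2 was 0.14 (edgeR adjusted p = 0.0352) and was lost without scramble replicate 1 (0.114) or 2 (0.0971) and without si-snaR-A#2 replicate 1 (0.108), 2 (0.0624) or 3 (0.092). The value with #3 was 0.08 (edgeR adjusted p = 0.206).

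SF3A2, the zinc finger subunit that lies against SF3B near the branch helix, was at 83.6, 85.8 and 83.8 CPM with scramble. It was at 95.9, 93.6 and 90.7 CPM with si-snaR-A#1, and the 6 libraries of the other siRNAs lay between 83 and 92.3 CPM. Only the si-snaR-A#1 libraries were all above scramble. The log2 fold change of 0.15 with #1 was called (SE 0.042, edgeR adjusted p = 0.0128) and became 0.13 without its replicate 1 (0.0527), and the values with #2 and #3 were 0.07 and 0.03 (edgeR adjusted p of 0.285 and 0.679). In the mean of the 3 it was 0.08 (edgeR adjusted p = 0.0996). That mean was called without si-snaR-A#1 replicate 3, at 0.09 (edgeR adjusted p = 0.0483), and by DESeq2 on all libraries, at 0.096 (adjusted p = 0.0475). An exon of PLEKHJ1 on the opposite strand covers 4.82% of the SF3A2 transcript, and PLEKHJ1 had from 27.4% to 40% as many counts as SF3A2. As the use of strand in the counting is not stated, it is not known whether reads from the 2 genes were told apart there. For SF3A1 the like overlap with CCDC157 was 3.24% and its counts 0.812 to 1.86%, and the pseudogenes of the members had at most 0.0608% of a parent's counts.

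Between the siRNAs, 5 genes (SF3B3, SF3B5, PHF5A, SF3A1 and SF3A2) differed in at least 1 pair. For si-snaR-A#1 against #2, 4 of the 10 were called, all higher with #1 (23.7% of all genes were called higher, 23% lower and 46.7% in either direction). The same count held for #1 against #3 (23.8%, 24.8% and 48.6%), and for #2 against #3 it was 2, both higher with #2 (6.52%, 9.03% and 15.6%). In either direction the members' shares of 40%, 40% and 20% lay near those of all genes. SF3B3 and SF3B5 were called in all 3 pairs. The shares of all genes called in at least 1 pair or in all 3 were not computed. SF3B3 fell from #1 to #2 to #3, with log2 differences of 0.24 and 0.16 between neighbours (edgeR adjusted p of 0.00028 and 0.0175), the second lost without si-snaR-A#2 replicate 1 (0.0635) or 2 (0.0795) or si-snaR-A#3 replicate 2 (0.08). SF3B5 was 0.60 higher on the log2 scale with #1 than with #3 (edgeR adjusted p = 6.85e-07) and 0.41 higher with #2 than with #3 (0.000192). SF3A1 was 0.26 and 0.32 higher with #1 than with #2 and #3 (edgeR adjusted p of 0.000297 and 5.22e-05). The mean of #2 and #3 alone was run because the si-snaR-A#1 libraries stood apart, and was chosen after seeing the data. It was also higher than scramble for the 6 genes called higher in the mean of all 3 siRNAs. The log2 values were 0.44 (SF3B2), 0.51 (PHF5A), 0.26 (SF3A3), 0.18 (SF3B6), 0.15 (SF3B3) and 0.11 (SF3A1). For SF3B5 it was -0.14. The share of all genes called in it was not computed, so its calls are not counted here.

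A ratio of counts within 1 library does not depend on scaling between libraries, so SF3B2 was also set against the subunits SF3B1 and SF3B4. The ratio of SF3B2 to SF3B1 counts was 0.424, 0.443 and 0.471 in the scramble libraries. It was 0.613 to 0.669 with si-snaR-A#1, 0.588 to 0.615 with si-snaR-A#2 and 0.548 to 0.592 with si-snaR-A#3. All 9 siRNA libraries were thus above scramble, by 0.44 on the log2 scale or 1.36-fold in the mean. The ratio to SF3B4 was 5.12 ± 0.386 with scramble and 7.63 ± 0.326, 7.35 ± 0.185 and 7.18 ± 0.0954 with #1, #2 and #3 (SD, n = 3), a log2 difference of 0.53 or 1.44-fold. Both differences had a two-sided exact permutation p of 0.00909 (9 libraries against 3, adjusted over the 2 ratios 0.00909), the smallest this design can give. The ratios are of counts and not per length. Their denominators are the 2 members called with no siRNA and the test takes the libraries of the 3 siRNAs as exchangeable, so it restates the difference in SF3B2 and is no independent support for it.

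**Figure D3:**
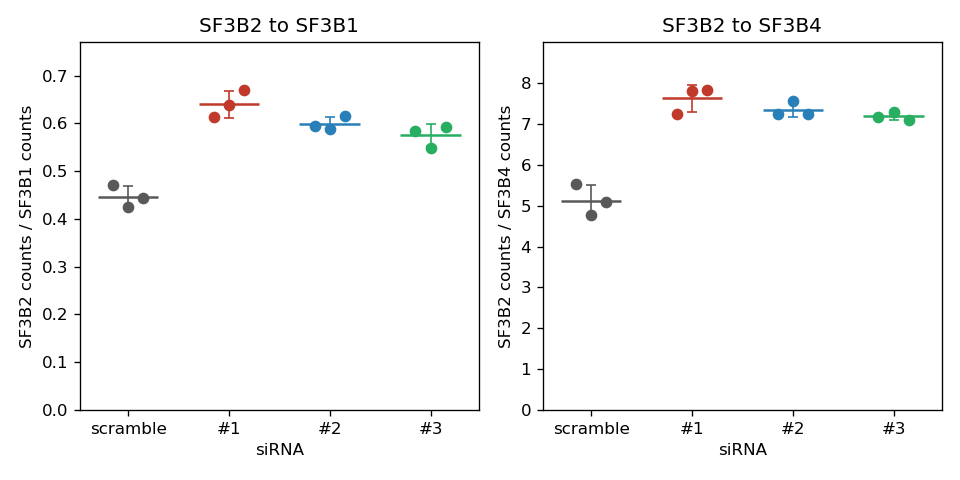
Counts of SF3B2 divided by those of SF3B1 (left) and SF3B4 (right) in each library, by siRNA group, on axes from 0. Points are libraries, horizontal lines means and bars SD (n = 3). The scramble ratios of 0.424 to 0.471 and 4.76 to 5.53 lie below every siRNA library.

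Levels between genes were compared in the scramble libraries as CPM per kb of the MANE Select transcript. The deposited counts look rescaled by transcript length in a way not stated, so these levels, like the count ratios, are approximate. SF3B6 was the most abundant at 264 ± 15.3 (SD, n = 3), followed by SF3B1 at 98.3 ± 2.59, SF3B5 at 93.8 ± 4.04 and SF3B2 at 86.5 ± 2.63. The libraries of SF3B1 and SF3B5 overlapped, and those of SF3B5 and SF3B2 did not. SF3A3 (59.3), SF3A2 (52.1) and SF3B3 (45.6) followed without overlap, and PHF5A (40.2), SF3A1 (37.1) and SF3B4 (35.9) each overlapped the next. The order depended on the length used. Per kb of all annotated exons SF3B6 was still first at 153 and SF3B5 was second at 93.8. SF3B2 was last at 28.9, and its libraries overlapped those of SF3A1 at 29.9.

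**Figure D4:**
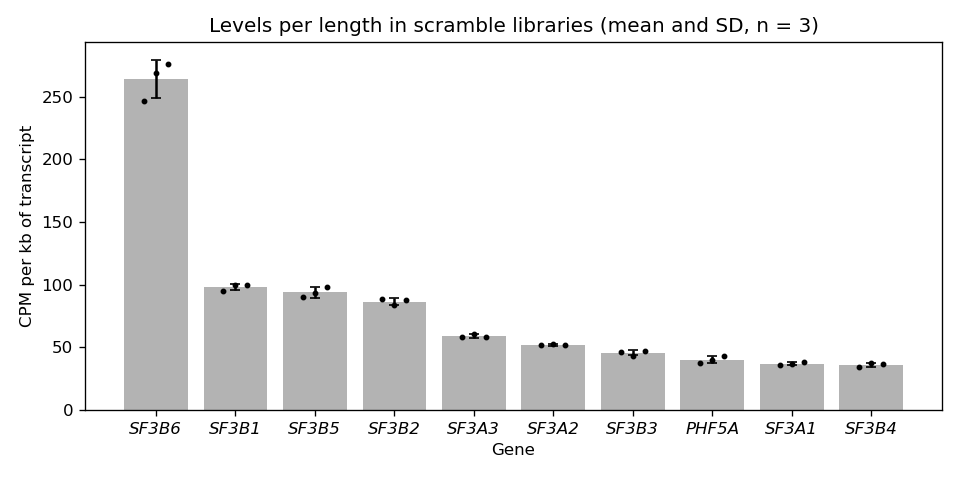
CPM per kb of the MANE Select transcript (vertical axis, from 0) of the 10 subunit genes in the 3 scramble libraries, in falling order. Bars are means, error bars SD (n = 3) and dots libraries. SF3B6 at 264 stands apart, and the other 9 genes lie between 35.9 and 98.3.

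The other genes of the splicing machinery were taken from 4 lists of 49 tested genes, and in the mean of the 3 siRNAs the members had 6 of 10 called higher and none lower (15.6% of all genes higher, 16.6% lower, 32.2% in either direction), 4 of 7 in SF3B and 2 of 3 in SF3A. Of 9 U2-specific and Sm ring genes, 1 rose and 1 fell: SNRPA1, the U2 A′ protein, by 0.27 on the log2 scale (edgeR adjusted p = 0.000176), and SNRPE, an Sm ring protein, with a change of -0.26 (0.00134). Of 14 genes for branch site recognition and U2 association, 2 rose and 5 fell. PUF60 and U2AF1, which help to select the 3′ splice site, were at 0.26 each (edgeR adjusted p of 0.00431 and 0.00772). These means joined unequal siRNAs: U2AF1 was at 0.52, 0.04 and 0.22 with #1, #2 and #3 and called with #1 only, PUF60 was at 0.42, 0.06 and 0.30 and not called with #2, and SNRPE was at -0.02, -0.20 and -0.58 and not called with #1. The helicase DDX42 was at -0.28 (0.000446), and U2AF2, which binds the polypyrimidine tract, was at -0.21 (6.29e-05). The 7 U11/U12 genes had 2 higher and 1 lower, PDCD7 at 0.17 (0.00167), SNRNP48 at 0.11 (0.0152) and SNRNP35 at -0.21 (0.00778). These means too joined unequal siRNAs. SNRNP48 was at -0.042, 0.197 and 0.185 with #1, #2 and #3 and not called with #1. PDCD7 was not called with #3, SNRNP35 was called with #2 only, and DDX42 was not called with #2.

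The 19 proteins of U1, U5 and U4/U6 had 11 higher and 1 lower. The tri-snRNP proteins SART1 and PRPF31 rose by 0.64 and 0.45 on the log2 scale (edgeR adjusted p of 9.89e-08 and 6.95e-06), beside 0.56 for PHF5A and 0.46 for SF3B2, and SNRNP70 of U1 was at -0.17 (0.000532), with 0.03, -0.22 and -0.33 for #1, #2 and #3 and no call with #1. SART1 went from a mean of 44.2 CPM with scramble to 72, 64.9 and 70.5 CPM with #1, #2 and #3. The list medians were 0.18 for SF3A and SF3B, 0.02 for U2-specific and Sm ring, -0.04 for branch site recognition, -0.05 for U11/U12 and 0.12 for U1, U5 and U4/U6, against -0.04 over all genes tested.

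**Figure D5:**
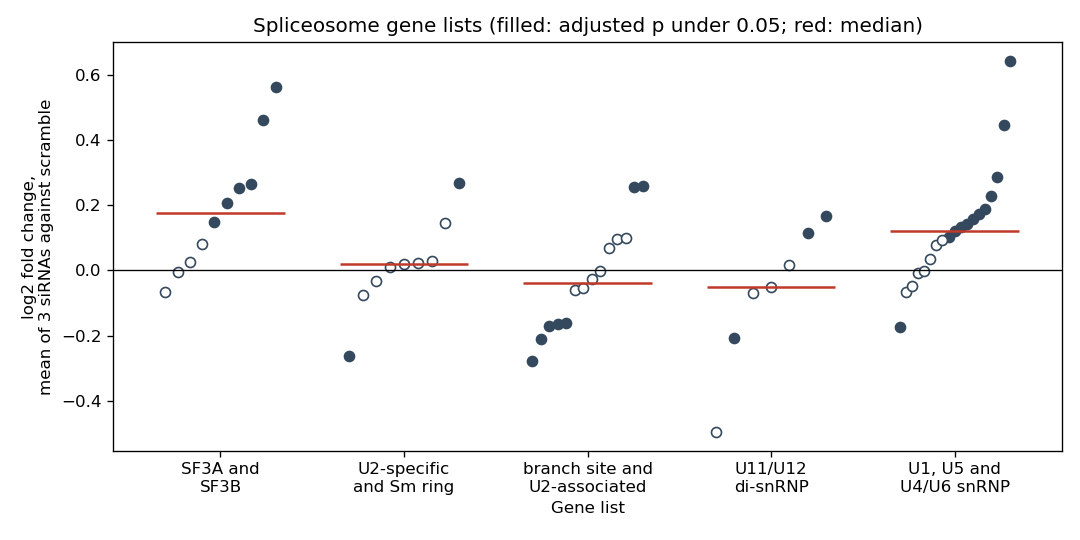
log2 fold change of the mean of the 3 siRNAs against scramble (vertical axis) for each gene of the 5 lists (horizontal axis). Each point is a gene, filled points have an edgeR adjusted p under 0.05 and red lines are list medians. The SF3A and SF3B list has 6 filled points above 0 and none below, and the branch site list has 2 above and 5 below.

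The genes whose pattern over the 9 siRNA libraries lay nearest to that of SF3B2 were found among the 10198 genes that averaged 10 CPM or more, by the root mean square difference of log2 CPM relative to scramble. Among the nearest were SLC1A5 (0.0478), a glutamine transporter, TRIP6 (0.0521), TCF24 (0.0524) and LAMB1 (0.0562), a laminin chain. SLC1A5 went from 177 CPM with scramble to 244, 245 and 245 CPM with #1, #2 and #3. Among the members PHF5A was the nearest to SF3B2, at rank 127 (0.119), then SF3A3 at rank 668 (0.215), and SF3B4, which binds SF3B2, was the farthest at rank 6208 (0.532).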

How the data were processed

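RNA from 12 HEK293T libraries was depleted of rRNA, enriched for poly(A)+ RNA and made into stranded libraries. The authors trimmed reads with Trim Galore, quantified them with Salmon (build hg38) and deposited estimated counts per Ensembl gene. Which transcriptome release was used, how transcripts were summed to genes and whether strand was used are not given in the sources used here.

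The deposited estimated counts look rescaled by transcript length, since almost none was whole but 77.8% of values from 0.5 to 1.5 lay within 0.05 of 1, so they are not exact read counts. They were rounded. Genes passing filterByExpr (21999) were fitted in 1 edgeR 4.0.16 quasi-likelihood model (R 4.3.3) of the 4 groups with TMM scaling, with Benjamini-Hochberg adjustment over all of them and a threshold of 0.05. The study used edgeR, whose exact test was run here as an alternative, as were DESeq2 1.42.0 and limma 3.58.1. Ratios were tested with scipy 1.17.1. The code was tested on simulated data. The members and lists were chosen with earlier results of these data known. Named genes were all members, up to 2 called rises and 2 called falls in each other list with the largest changes, and the 5 genes nearest to SF3B2, of which 1 is not reported here. Sequences of the siRNAs served only for the statement on their overlap and are not printed.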

Additional observations from a re-analysis of the deposited data

Results flagged for a closer look

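The differences between siRNAs that passed the test are gathered here as log2 differences, all higher with the siRNA named first, from the edgeR quasi-likelihood test with Benjamini-Hochberg adjustment. For si-snaR-A#1 against si-snaR-A#2 they were 0.241 for SF3B3, 0.196 for SF3B5 (adjusted p = 0.00588), 0.197 for PHF5A and 0.263 for SF3A1. For si-snaR-A#1 against si-snaR-A#3 they were 0.399 for SF3B3 (adjusted p = 3.46e-06), 0.601 for SF3B5, 0.323 for SF3A1 and 0.12 for SF3A2 (adjusted p = 0.033). For si-snaR-A#2 against si-snaR-A#3 they were 0.159 for SF3B3 and 0.405 for SF3B5. The SF3A2 difference was lost without si-snaR-A#1 replicate 1 (adjusted p = 0.116) or 2 (0.0708), si-snaR-A#2 replicate 1 (0.0528) or si-snaR-A#3 replicate 1 (0.104) or 2 (0.15), with no filter on low counts (0.125) and in a fit of only the groups compared (0.0593). For 8 of the 10 differences the higher siRNA was #1, whose 3 libraries stood apart from the other 9 over all genes, and its part in these values was not tested. Of all genes tested, 46.7% (#1 against #2), 48.6% (#1 against #3) and 15.6% (#2 against #3) were called in either direction. Most calls over all genes thus also involved #1.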

How the results depend on the processing

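Over 22 alternatives, 1374 of 1460 log2 fold changes kept their direction and side of the threshold, 18 gained the call, 29 lost it and 39 changed direction. These 39 were called in neither fit, and none was more than 0.038 from 0 under the alternative. Under upper quartile scaling they were -0.033 for SF3B1 with #2, -0.006 for its mean, -0.026 for SF3A2 with #3, 0.025 for SF3B1 and 0.021 for SF3A3 (#1 against #2), 0.036 for SF3B4 (#1 against #3) and 0.002 for SF3B2 (#2 against #3). With a minimum mean of 1 CPM they were 0.012 for SF3B1 with #1, -0.001 for SF3A2 with #3, 0.007 for SF3B1 and 0.003 for SF3A3 (#1 against #2), 0.031 for SF3B4 (#1 against #3) and 0.015 for SF3B2 (#2 against #3). RLE size factors and DESeq2 each gave 0.011 for SF3B5 in the mean and 0.002 for SF3B2 (#2 against #3), and a fit of only the groups compared gave 0.015 for SF3B1 with #1 and 0.004 for SF3B2 (#2 against #3). With single libraries left out in turn, SF3B1 ran from -0.044 to 0.032 with #1, -0.009 to 0.045 with #2 and -0.061 to 0.002 for #1 against #2. The ranges were -0.01 to 0.053 for SF3A2 with #3, -0.034 to 0.038 for SF3B5 in the mean, -0.068 to 0.016 for SF3A3 (#1 against #2), -0.021 to 0.03 and -0.06 to 0.008 for SF3B4 (#1 against #2 and against #3) and -0.017 to 0.015 for SF3B2 (#2 against #3). The members called for si-snaR-A#2 against si-snaR-A#3 fell from 2 to 1 with no filter on low counts, and were 1 to 2 when libraries were left out in turn. The SF3B2 to SF3B1 log2 difference was 0.522 with si-snaR-A#1 alone and 0.367 with si-snaR-A#3 alone, and 0.403 to 0.478 with single libraries left out (0.477 to 0.585 for SF3B4). For SF3A1 with si-snaR-A#2 the adjusted p was 0.0758 with upper quartile scaling and 0.0686 with no filter. Upper quartile scaling and a minimum mean of 1 CPM each raised the members called for si-snaR-A#1 against #2 and against #3 from 4 to 6. The share of all genes called was computed for the main fit only. Under upper quartile scaling the median over all genes tested went from 0.029 to 0.081 (#1 against #2) and from 0.025 to 0.085 (#1 against #3). The part of this shift in the added calls was not tested. The edgeR exact test and a fit of only the groups compared gave no value for the mean of the 3 siRNAs.

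Replicate numbers are shared across groups. Over 14529 genes, 5 of 18 same-numbered pairs of libraries had a correlation of deviations above 0.1 (range -0.236 to 0.172). With 3 replicates in a group these correlations cannot exclude a pairing of the libraries by number. With the replicate block, 7, 4 and 5 members were called with si-snaR-A#1, #2 and #3 and 6 in their mean, and SF3A1 with si-snaR-A#2 was no longer called (adjusted p = 0.0552); no other call of a member changed.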
